A study of Mus musculus with 8 samples.

Results

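The Kcnip1 and Bmper fibroblasts are heart nuclei picked by the transcripts they hold, and 10393 of 167504 barcodes (6.20%) met the rule. About 10000 nuclei of each heart went into a library, while 6 of the 8 libraries held 21190 to 36308 barcodes, so a barcode here need not be 1 intact nucleus and each share below is a share of barcodes. A barcode needed at least 800 UMIs (unique molecular identifiers, each standing for 1 captured transcript) outside mitochondrial genes. For a gene list, its enrichment was the list's share of the UMIs of a barcode divided by its share in the whole library of that mouse. Barcodes were kept where the list Kcnip1, Bmper, Rgs17, Tll2, Gfra1 and Necab1 was enriched at least 3 times with at least 4 UMIs. That enrichment also had to be over 2 times that of Gfpt2, Adgrd1, Adamtsl3, Has2, C7 and Hmcn2, and above that of Sntg1, Nkain3, Thsd7b, Aox3, Gria4 and Gpr39. The cardiomyocyte genes Ryr2 and Ttn together had to stay at an enrichment of 1 or less. A similar rule built on each of the other lists gave 12100 Gfpt2 and C7 fibroblasts and 5840 Sntg1 and Nkain3 fibroblasts, which serve for comparison. For these groups the enrichment of their own list only had to be above that of each other list, without the factor of 2.

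Nuclei came from cryopreserved whole hearts of 9-week-old male mice, 4 wild type (WT) and 4 with a knockout of Taz (Taz-KO), with 1 library per mouse. Taz encodes tafazzin, the enzyme that remodels the mitochondrial lipid cardiolipin, and its loss causes Barth syndrome. How the knockout allele was made is not given in the sources used here. Each mouse is called by its number in the labels.

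Fibroblasts of the heart make and maintain the collagenous and basement membrane matrix between the muscle fibers, and they fall into states that differ in matrix, signaling and position. Several genes of the list act in signaling between cells. Bmper encodes a secreted protein that binds bone morphogenetic proteins (BMPs), Tll2 a tolloid-like metalloprotease of the family that cleaves the BMP antagonist chordin, and Gfra1 the co-receptor through which glial cell line-derived neurotrophic factor reaches the Ret kinase. Kcnip1 encodes a calcium-binding partner of Kv4 potassium channels, Rgs17 a protein that speeds the turn-off of G proteins, and Necab1 a neuronal calcium-binding protein.

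The nuclei were unevenly spread over the mice. WT mice 4686, 4909, 5355 and 5356 gave 1951, 2128, 1439 and 1402 nuclei, and Taz-KO mice 4685, 4910, 5300 and 5301 gave 84, 2138, 1029 and 222. Summed per mouse they held 7731680 to 15784446 UMIs in WT and 749788 to 12020210 in Taz-KO, with the lowest sums in mice 4685 and 5301. The libraries of mice 4685 and 5301 stood apart, with 3475 and 3899 barcodes of at least 800 UMIs against 21190 or more in every other library, and several of the results are also given without them. Mitochondrial genes took 2.33% to 27.3% of the UMIs of these nuclei. Any pair of libraries shared 2 to 294 barcode sequences and at most 3 sequences of member nuclei.

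The label of fibroblast was checked against general fibroblast genes, which the rule did not use. The summed level of 17 fibroblast identity genes, such as Pdgfra, Dcn and Gsn, was 16308 to 21540 CPM (UMIs of the genes per 1000000 UMIs) in WT mice and 13225 to 21393 in Taz-KO mice. It was above that of the whole library of the same mouse in 8 of 8 mice, by a ratio of 1.23 to 3.74. Against the Gfpt2 and C7 fibroblasts it was higher in 2 of 8 mice, with a median ratio of 0.957, and against the Sntg1 and Nkain3 fibroblasts in 8 of 8, with a median ratio of 1.30. Of the member nuclei, 3960 (38.1%) also met a broad fibroblast rule built on 8 general fibroblast genes, with a spread from 10.7% in Taz-KO mouse 4685 and 13.96% in WT mouse 4909 to 75.2% in WT mouse 5356 and 88.3% in Taz-KO mouse 5301, and 1914 (18.4%) carried markers of another cell type at an enrichment of at least 3.

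Transcripts of other cells were present in the member nuclei. Endothelial barcodes, chosen by 12 endothelial genes and low in general fibroblast genes, serve as a reference. All 16 cardiomyocyte markers were detected and tested, and together they took 0.555% to 2.35% of UMIs in WT and 0.221% to 1.57% in Taz-KO. In endothelial barcodes the same markers took 0.675% to 2.23% in WT and 0.345% to 1.47% in Taz-KO, close to the values in member nuclei. Endothelial markers summed to 1284 to 1883 CPM in WT member nuclei and 577.5 to 2293 CPM in Taz-KO ones, and macrophage markers to 1409 to 2282 CPM and 768.2 to 2093 CPM. Their part in the results below was not tested unless a value is given.

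The genes of the rule are described here without a test, since their values chose the nuclei. Across the 8 mice, Bmper was seen in 70.2% to 92.9% of member nuclei, with a median of 80.7%, and in a median of 8.61% of endothelial barcodes. After each barcode was thinned to 800 UMIs, the medians were 34.7% and 2.01%. Gfra1 was seen in a median of 66.5% of member nuclei and 6.15% of endothelial barcodes, and Kcnip1 in 32.5% and 3.06%. The other fibroblast groups lay between for all 3 genes. In the Gfpt2 and C7 fibroblasts the medians of Bmper, Gfra1 and Kcnip1 were 30.7%, 21.6% and 5.75%. In the Sntg1 and Nkain3 fibroblasts they were 41.7%, 19.8% and 5.91%. The median number of UMIs, taken as the middle of the per-mouse medians, was 4941 in member nuclei and 5527 in endothelial barcodes. At least 3 of the 6 genes were seen in 50.5% (WT mouse 5355) to 80.4% (WT mouse 4686) of the nuclei of a mouse, and 2.31% to 14.4% of the nuclei held 1 of the 6.

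At the edge of the rule the median fibroblast content over mice changed gradually, while single mice went both ways. The 826 nuclei with an enrichment between 3 and 3.5 held a median over mice of 8483 CPM of the 8 general fibroblast genes, and the 815 barcodes just outside, between 2.5 and 3, held 7034 CPM. All members together held 12572 CPM. In WT mouse 5356 and Taz-KO mice 5300 and 4685 the barcodes just outside held more than those just inside. The values were 7724 against 7183, 6344 against 6272 and 15791 against 7779 CPM. In the other mice the barcodes just outside held less, and Taz-KO mouse 5301 had 1 barcode on each side. A further 3411 barcodes missed the rule by having fewer than 4 UMIs of the list and nothing else, 752 in WT and 2659 in Taz-KO. Taz-KO mouse 5300 had 1581 of them, more than its 1029 members, and WT mice 4686 and 4909 had 0. The lowest total of a deposited barcode was 6522 UMIs in WT mouse 4909, 3979 in WT mouse 4686 and 2482 in Taz-KO mouse 5300. It was 500 in Taz-KO mice 4685 and 5301, the only libraries in which the minimum of 800 UMIs removed barcodes. An enrichment of 3 asked for 864, 1218 and 505 CPM in mice 4909, 4686 and 5300. Deeper barcodes or a higher threshold leave less room to miss only the 4 UMIs, and the part of this was not tested.

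To read each gene of the list in nuclei it had not chosen, the rule was rebuilt from the other 5 genes and the left-out gene was measured in CPM. Kcnip1 then reached 186, 126, 38.1 and 65.8 CPM in WT mice 4686, 4909, 5355 and 5356 and 269, 113, 60.7 and 156 CPM in Taz-KO mice 4685, 4910, 5300 and 5301. It was above both other fibroblast groups in 8 of 8 mice, with a median ratio of 4.26 to the Gfpt2 and C7 fibroblasts and 5.10 to the Sntg1 and Nkain3 fibroblasts. The genotypes overlapped widely, and mice of 1 genotype differed several-fold.

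Bmper, Rgs17, Gfra1 and Necab1 were likewise higher than in both other groups in 8 of 8 mice when left out of the rule. Their median ratios to the Gfpt2 and C7 fibroblasts were 1.99, 2.65, 2.39 and 2.36, and to the Sntg1 and Nkain3 fibroblasts 1.68, 2.06, 3.16 and 4.28. Tll2 had the lowest ratio to the Gfpt2 and C7 fibroblasts. It was above the Gfpt2 and C7 fibroblasts in 7 of 8 mice with a median ratio of 1.38, and the exception was WT mouse 5355, at 30.6 CPM against 32.4 CPM. Against the Sntg1 and Nkain3 fibroblasts Tll2 was higher in 8 of 8 mice, with a median ratio of 5.42. These ratios are a description, since the 6 genes were proposed together from earlier results of the same nuclei.

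**Figure D1:**
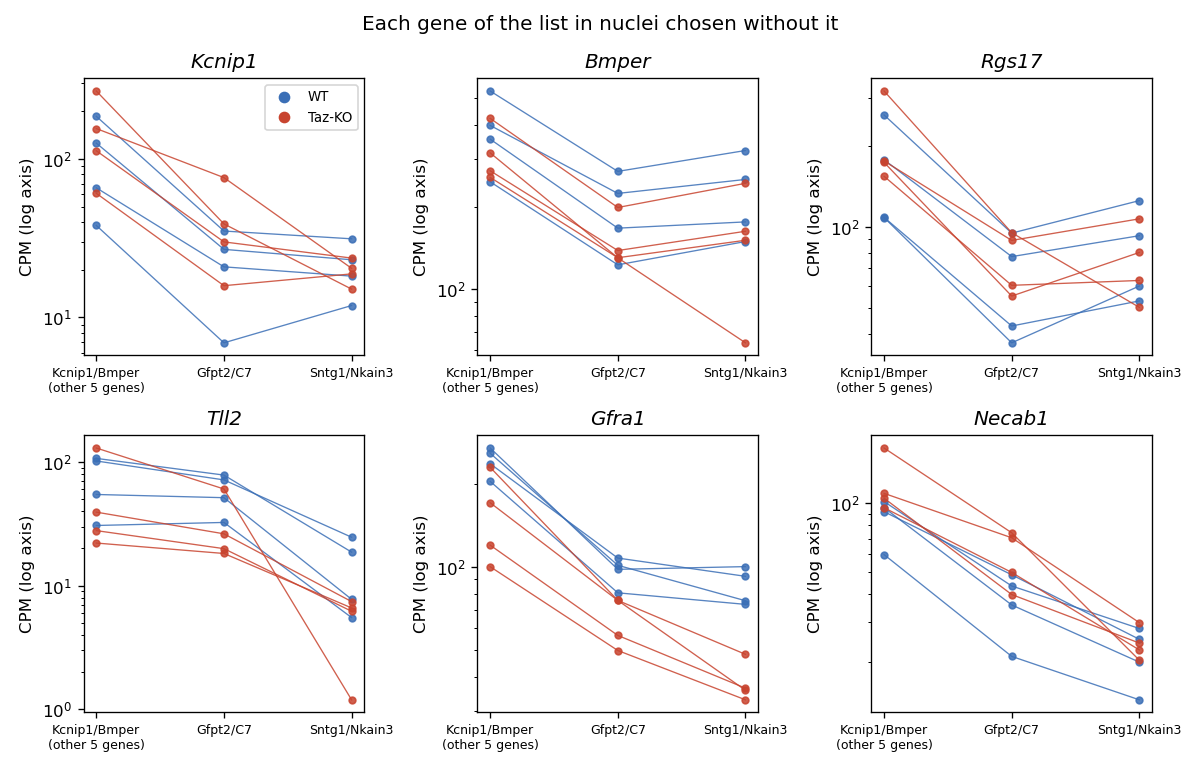
CPM (log axis) of each of the 6 genes in nuclei chosen by the other 5 (left), in Gfpt2 and C7 fibroblasts (middle) and in Sntg1 and Nkain3 fibroblasts (right), with 1 line per mouse (4 WT, 4 Taz-KO). Most lines fall from the left, with Kcnip1 at a median ratio of 4.26 between left and middle and Tll2 at 1.38.

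Among genes outside the rule, 8444 had at least 20 CPM on average in 1 of the 3 fibroblast groups. Of these, 227 (2.69%) were higher in the Kcnip1 and Bmper fibroblasts than in both other groups in all 8 mice, and 208 (2.46%) were lower in all 8. At a margin of 1 log2 unit or more in every mouse, 2 were higher and 2 were lower. The comparison carries no test, because groups cut by transcripts of the same nuclei must differ in genes that go with those transcripts. Markers of mesothelial cells, which line the heart surface, summed to 778 to 1563 CPM in Sntg1 and Nkain3 fibroblasts of WT mice. In WT they summed to 79.8 to 135 CPM in member nuclei and 74.0 to 141 CPM in Gfpt2 and C7 fibroblasts. Markers of another cell type were carried by 32.4% (WT mouse 4909) to 54.2% (Taz-KO mouse 5301) of Sntg1 and Nkain3 nuclei. The part of mesothelial transcripts in the comparison was not tested.

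The 2 that were higher by that margin were Apba2 and Hunk. Apba2, which encodes an adaptor that binds the amyloid precursor protein, lay at 32.6 to 92.0 CPM in the Kcnip1 and Bmper fibroblasts over the 8 mice. Its mean was 55.7 CPM there, 9.23 CPM in the Gfpt2 and C7 fibroblasts and 12.1 CPM in the Sntg1 and Nkain3 fibroblasts. Hunk, a hormonally regulated serine/threonine kinase, averaged 93.8 CPM against 31.0 and 25.6 CPM. In every mouse both genes were highest in the Kcnip1 and Bmper fibroblasts.

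Further genes by the naming rule were higher in all mice. Fap, the fibroblast activation protein, averaged 318 CPM against 155 and 106 CPM, and the peptidases Trhde and Lvrn averaged 98.1 against 52.5 and 30.9 CPM and 237 against 96.0 and 111 CPM. Hsd11b1, which regenerates active glucocorticoid, averaged 129 CPM against 50.1 and 47.7 CPM, and Blnk, a signaling adaptor best known from B cells, 115 against 34.4 and 50.8 CPM. Runx2, a transcription factor of bone-forming cells, averaged 128 CPM against 63.3 and 51.2 CPM.
Others were the glutamate receptors Gria1 and Grm8, the synaptic vesicle gene Syn2, the microtubule-associated Map2 and the membrane glycoprotein Gpm6b, the last at 483 CPM against 247 and 220 CPM. The rule for naming genes also gave the cadherins Dchs2 and Fat3, Hs6st2, Ggt5, Tnik, Gm14964 and 4921511I17Rik.

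Dpp4, a surface peptidase known from adventitial fibroblasts, was lower in all mice. It averaged 24.5 CPM against 97.8 in the Gfpt2 and C7 fibroblasts and 235 in the Sntg1 and Nkain3 fibroblasts. Of the 12 adventitial and universal fibroblast genes, 6 were lower than in both other groups in all 8 mice and 0 were higher, against 2.46% and 2.69% of all genes compared. They were Dpp4, Ackr3, Sema3c, Efemp1, Col14a1 and Igfbp6, and Col14a1, a fibril-associated collagen, averaged 93.0 CPM against 252 and 220 CPM. The remaining low genes by the naming rule were Gm13561, Ildr2, Cmah, Tmeff2, Pamr1, Arhgef28, Basp1, Adgrg2 and Clmn, of which Gm13561 and Ildr2 passed the margin of 1 log2 unit.

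**Figure D2:**
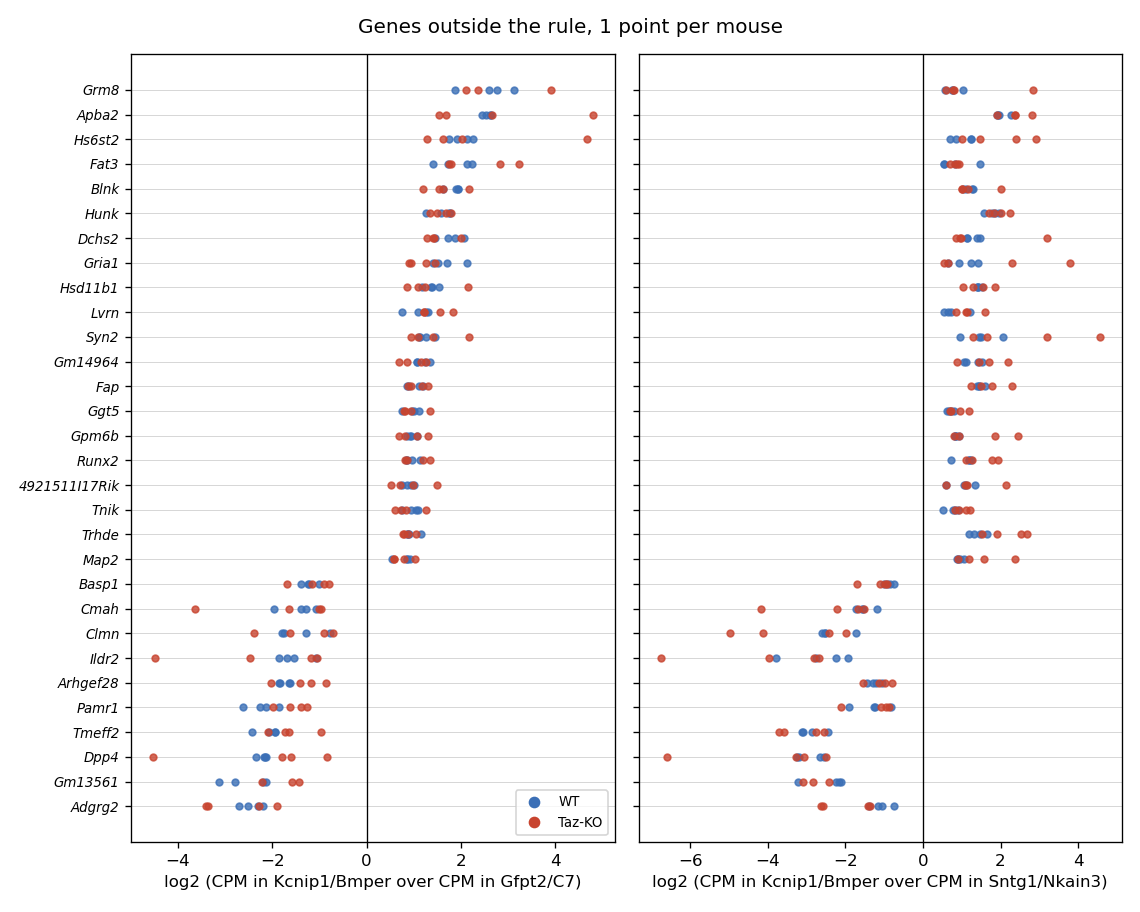
Log2 ratio of CPM in the Kcnip1 and Bmper fibroblasts to CPM in the Gfpt2 and C7 fibroblasts (left) and in the Sntg1 and Nkain3 fibroblasts (right) for the 20 highest and 10 lowest genes outside the rule, with 1 point per mouse (blue WT, red Taz-KO). A pair with a count of 0 is not drawn. The points of the upper 20 genes lie above 0 and those of the lower 10 below it.

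Lists of related genes are given beside the 2.69% of all genes that were higher and the 2.46% that were lower. Of 17 fibroblast identity genes, 2 were higher than in both other groups in all mice, the basement membrane chain Lama2 (2713 CPM against 2154 and 1545 CPM) and the transporter Abca8a (2082 CPM against 1639 and 1124 CPM), and 2 were lower, Col3a1 and Fbln1. Among BMP ligands and receptors, 1 of 11 was higher, the ligand Bmp4, at 75.2 CPM against 53.4 and 39.95 CPM. Rgs7, a regulator of G proteins of the same kind as Rgs17 and not part of the rule, averaged 130 CPM against 30.8 and 66.7 CPM. Of the 9 markers of mural cells compared, the cells that wrap small vessels, Notch3, Pdgfrb and Rgs5 were also higher in all mice, with Notch3 at 102 CPM against 42.5 and 69.6 CPM. The part of mural transcripts in the comparison of groups was not tested.

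The share of barcodes that met the rule did not overlap between genotypes with the rule as given, and overlapped once its minimum of 4 UMIs was dropped. WT hearts had 7.32% ± 0.937 (SD, n = 4) and Taz-KO hearts 4.37% ± 1.70 (SD, n = 4), at 6.62% to 8.64% against 2.42% to 5.89%, so the genotypes did not overlap. The exact two-sided permutation test gave p = 0.0286, the smallest value 4 against 4 mice can give, and 0.0857 after Benjamini-Hochberg adjustment over the 3 shares tested. Of all fibroblasts that met 1 of the 3 rules, the Kcnip1 and Bmper fibroblasts made up 38.3% ± 2.58 (SD, n = 4) in WT hearts against 34.0% ± 4.03 (SD, n = 4) in knockout hearts, with an exact permutation p of 0.143. Of the broad fibroblasts they made up 15.5% ± 4.89 (SD, n = 4) and 10.6% ± 7.93 (SD, n = 4), with an exact permutation p of 0.314.

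With the barcodes added back that missed only the minimum of 4 UMIs, the share was 8.19% ± 0.728 in WT and 8.24% ± 1.96 in Taz-KO (SD, n = 4 each, exact permutation p = 0.943). The WT mice then lay at 7.33% to 8.94% and the Taz-KO mice at 5.70% to 10.4%, so the genotypes overlapped. Median UMIs per barcode were 4201 to 6733 in WT libraries and 2461 to 4905 in Taz-KO libraries. The difference also moved with how the threshold was set. The list took 199 to 406 CPM of a WT library and 144 to 179 CPM of a Taz-KO library, so an enrichment of 3 asked for more transcripts in WT. With an enrichment of at least 5 the shares were 4.28% ± 0.709 and 3.97% ± 1.74 (SD, n = 4 each, exact permutation p = 0.80). An alternative with 1 common list share for all libraries was added after the data were seen. It gave shares of 9.08% ± 3.59 and 4.07% ± 1.73 (SD, n = 4 each, exact permutation p = 0.0571). Without barcodes that carried markers of another type the exact permutation p was 0.114. It stayed at 0.0286 (0.0857 adjusted) with Ryr2 and Ttn at 0.5 or less, and without Gfpt2, Adgrd1 and Adamtsl3 in their list. The same p was found with Kcnip1, Bmper, Rgs17, Tll2 or Necab1 left out of the rule, and 0.0571 without Gfra1.

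**Figure D3:**
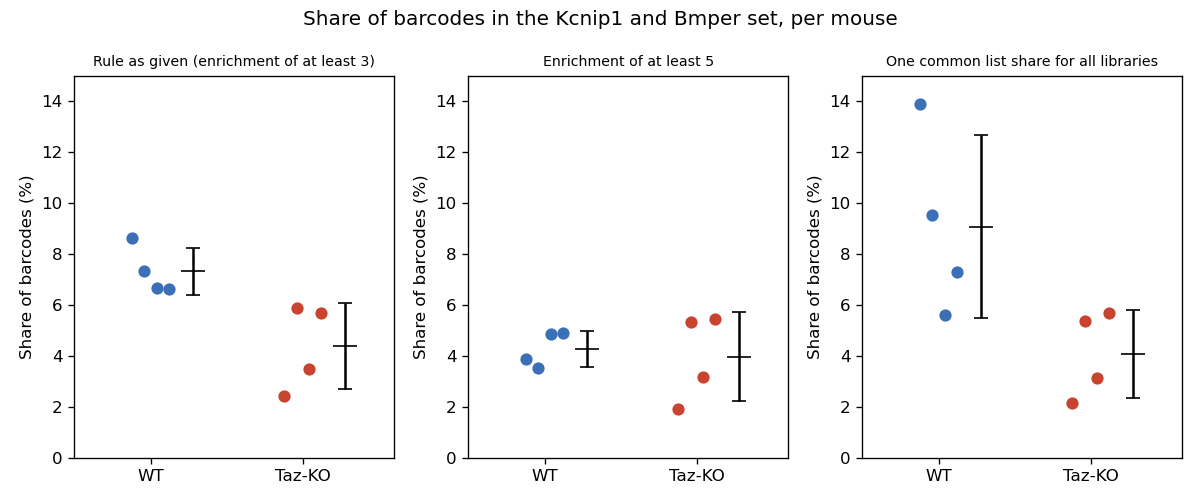
Share of barcodes (percent) that met the rule as given, with an enrichment of at least 5, and with 1 common list share for all libraries, with 1 point per mouse and the mean ± SD in black (n = 4 WT, 4 Taz-KO). The genotypes are apart in the first panel, at means of 7.32% and 4.37%, and overlap in the other panels.

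Between genotypes, the knocked-out gene itself was examined first. Taz transcripts in the Kcnip1 and Bmper fibroblasts were at 39.6, 38.7, 35.8 and 33.2 CPM in WT mice 4686, 4909, 5355 and 5356 and at 26.7, 23.0, 21.5 and 29.1 CPM in Taz-KO mice 4685, 4910, 5300 and 5301, on the scale of the test (CPM after TMM normalization). Every Taz-KO mouse was below every WT mouse. The log2 fold change was -0.60 (SE 0.156) with an adjusted p of 0.207 by edgeR's quasi-likelihood test. The difference did not pass the test at 0.05, and did so in 1 of 26 alternatives, with the cardiomyocyte marker share as a covariate (edgeR adjusted p 0.0411). Without Taz-KO mice 4685 and 5301 the log2 fold change was -0.74 (edgeR adjusted p 0.125). Where in the gene these UMIs lay is not known from gene counts.

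Across 15598 genes tested on the sums per mouse, 58 (0.372%) passed an adjusted p of 0.05, with 48 (0.308%) higher and 10 (0.0641%) lower in Taz-KO. At the stricter limits of the study, an adjusted p under 0.001 and a log2 fold change beyond 0.58, 2 passed (0.0128%), Vmn2r3 and Ostn. At an unadjusted p under 0.05 there were 1345 genes (8.62%), and 840 genes (5.39%) had mice that did not overlap between genotypes. The median log2 fold change of all genes was 0.00, and 50.3% of genes were above 0. The count rested on single mice, falling to 4 without Taz-KO mouse 4910, to 19, 21 and 22 without WT mice 5355, 4909 and 4686, to 25 without Taz-KO mouse 5300 and to 35 without Taz-KO mouse 4685. It rose to 116 without Taz-KO mouse 5301 and was 86 without Taz-KO mice 4685 and 5301. DESeq2 called 215 genes (65 at the stricter limits), and edgeR with the cardiomyocyte marker share as a covariate 503 (37).

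Of the 48 increases, 33 had mice that did not overlap and at least 5 CPM in 1 genotype. Among these the largest were Vmn2r3, Ostn and Gdf15. Vmn2r3, a vomeronasal receptor gene, was at 0.251, 0.133, 0.258 and 0.128 CPM in WT and at 62.0, 54.9, 43.3 and 17.2 CPM in Taz-KO mice 4685, 4910, 5300 and 5301 (log2 fold change 7.79, SE 0.462, edgeR adjusted p 0.000135). Ostn, which encodes the secreted peptide osteocrin, was at 0.00 to 0.167 CPM in WT and at 17.0, 17.0, 15.7 and 5.29 CPM in Taz-KO (7.05, SE 0.505, edgeR adjusted p 0.000434). In both genes Taz-KO mouse 5301 was lowest of its genotype, and every Taz-KO mouse was above every WT mouse.
The teneurin Tenm4, an adhesion protein of the cell surface, was at 14.6 to 22.6 CPM in WT and at 284, 209, 164 and 111 CPM in Taz-KO (3.38, SE 0.282, edgeR adjusted p 0.00128), and the receptor phosphatase Ptprt rose by a log2 fold change of 3.27. The other increases by the naming rule were Gm20618, Tex22, Tfcp2l1, Soat2, Gm13944 and Atcay, with log2 fold changes of 3.25 (Atcay) to 4.72 (Gm20618).

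Decreases were fewer. Trabd2b, a protease that acts on Wnt proteins, was at 98.2, 92.3, 101 and 127 CPM in WT and at 46.2, 53.1, 43.3 and 35.7 CPM in Taz-KO (log2 fold change -1.21, SE 0.162, edgeR adjusted p 0.0128). Strit1, which encodes a micropeptide of the muscle calcium pump, was at 11.9, 16.7, 15.5 and 3.33 CPM in WT and at 1.22, 0.50, 0.463 and 0.00 CPM in Taz-KO (-4.52, SE 0.691, edgeR adjusted p 0.0264). The noncoding genes Gm20757, Gm24474 and Gm26862 completed the 5 decreases that met the naming rule, with log2 fold changes of -2.85, -2.86 and -3.14.

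The levels of these genes in the Kcnip1 and Bmper fibroblasts are given beside those in other barcodes of the same hearts. The level was taken in the genotype in which the gene was higher, in CPM without TMM scaling, and compared with endothelial, macrophage and cardiomyocyte barcodes. Of the 58 genes, 45 lay within 1.5 times of the mean of endothelial and macrophage barcodes, with a median ratio of 1.09. Cardiomyocyte barcodes held more than the member nuclei for 48 of the 58, at least 2 times as much for 38, with a median ratio of 3.18. These counts were not taken over all 15598 genes tested, so they do not show whether the 58 genes differ from other genes in this. Vmn2r3 averaged 45.6 CPM in Taz-KO member nuclei, 39.5 in endothelial, 41.2 in macrophage and 233 in cardiomyocyte barcodes. Tenm4 averaged 198, 112, 136 and 1436 CPM, and Gdf15 41.0, 35.3, 42.1 and 27.4 CPM. Strit1 averaged 11.4 CPM in WT member nuclei, against 9.15, 8.22 and 11.3 CPM.

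Of the 58 genes, 2 (Adamtsl2 and Fam163b) were higher in member nuclei than in all 3 other kinds of barcode in 4 of 4 Taz-KO mice. They were singled out after these values were seen, and the same count was not taken over all genes tested. Adamtsl2 encodes a secreted glycoprotein of the ADAMTS-like family that binds latent TGF-beta binding protein and fibrillin in the matrix. On the TMM scale it was at 46.8, 35.6, 52.0 and 40.7 CPM in WT mice 4686, 4909, 5355 and 5356 and at 102, 140, 152 and 160 CPM in Taz-KO mice 4685, 4910, 5300 and 5301 (log2 fold change 1.67, SE 0.179, edgeR adjusted p 0.00563). The lowest Taz-KO mouse was above the highest WT mouse. Without Taz-KO mouse 4910 the edgeR adjusted p was 0.0591, and without Taz-KO mice 4685 and 5301 it was 0.00611 (log2 fold change 1.72). Without TMM scaling, Adamtsl2 averaged 142 CPM ± 24.9 (SD, n = 4) in Taz-KO member nuclei, against 36.8 ± 17.4 in endothelial, 31.0 ± 17.2 in macrophage and 15.2 ± 8.61 in cardiomyocyte barcodes (SD, n = 4 each).
In WT it averaged 42.4 CPM ± 6.96 (SD, n = 4) in member nuclei and 17.3, 17.4 and 8.35 CPM in the same 3 kinds of barcode. In the Gfpt2 and C7 fibroblasts it averaged 60.9 ± 14.7 CPM in WT and 167 ± 24.5 CPM in Taz-KO (SD, n = 4 each), and the difference between the 2 fibroblast groups in their log2 fold change was 0.29 (SE 0.0856, edgeR interaction adjusted p 0.306). In the Sntg1 and Nkain3 fibroblasts the means were 43.4 and 79.0 CPM, with a difference of 0.68 (SE 0.208, edgeR interaction adjusted p 0.334).

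Fam163b, a gene of a small membrane protein, was at 0.77 to 1.81 CPM in WT and at 3.65, 8.41, 14.1 and 9.27 CPM in Taz-KO mice 4685, 4910, 5300 and 5301 (log2 fold change 2.86, SE 0.409, edgeR adjusted p 0.0192). Without Taz-KO mouse 4910 the edgeR adjusted p of Fam163b was 0.097, and without Taz-KO mice 4685 and 5301 it was 0.0166 (log2 fold change 3.05). In Taz-KO it averaged 9.07 CPM without TMM scaling in member nuclei and at most 0.97 CPM in endothelial, macrophage and cardiomyocyte barcodes. These values rested on few transcripts. In Taz-KO mouse 4685 the level was 3.84 CPM among 782256 UMIs of member nuclei. In the endothelial and macrophage barcodes of that mouse, with 442376 and 238173 UMIs, Fam163b was at 0 CPM. The other fibroblasts held it as well, at 10.6 CPM in the Gfpt2 and C7 fibroblasts and 6.70 CPM in the Sntg1 and Nkain3 fibroblasts. It is the next gene to Adamtsl2. On GRCm38, Adamtsl2 spans chr2:27079379-27108981 on the plus strand and Fam163b chr2:27110380-27142491 on the minus strand, so the 2 genes point at each other and are 1398 bases apart. Whether reads of 1 gene were counted for the other cannot be told from gene counts.

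**Figure D4:**
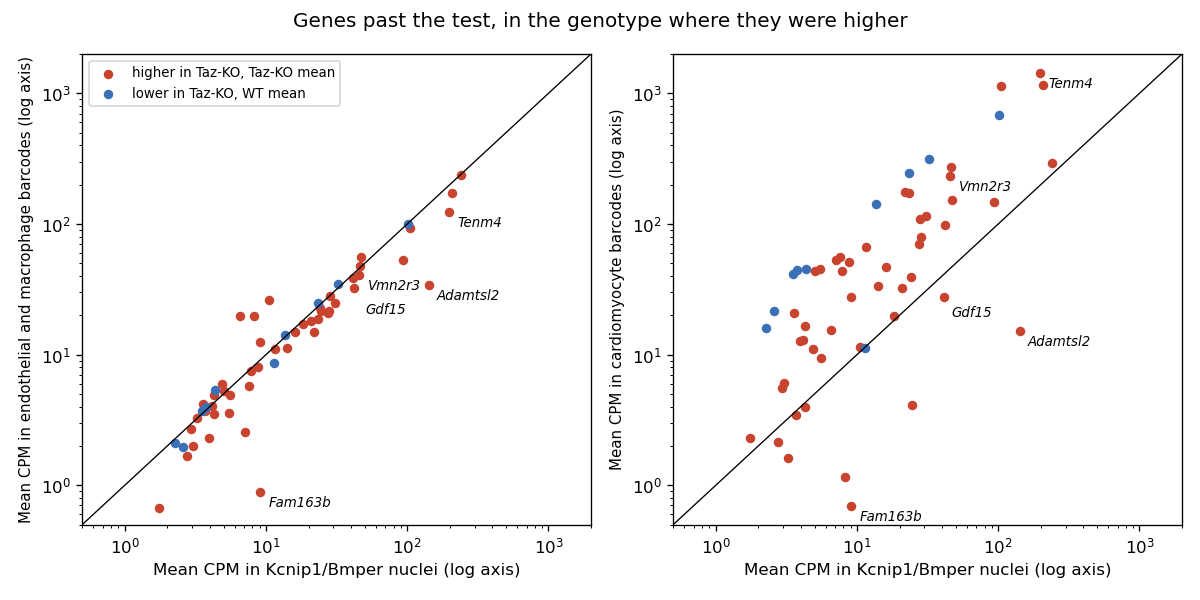
Mean CPM of the 58 genes past the test in Kcnip1 and Bmper fibroblasts (x, log axis) against endothelial and macrophage barcodes (left) and cardiomyocyte barcodes (right, y, log axis), each over the 4 mice of the genotype in which the gene was higher, with the line of equal level. Most genes lie near the line on the left and above it on the right, while Adamtsl2 (142 against 36.8, 31.0 and 15.2 CPM) and Fam163b lie below it in both.

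Genes of the integrated stress response, the program that ATF4 drives when translation is curbed, held 4 of the 48 increases. Of 22 members tested, 4 were higher (Asns, Gdf15, Trib3 and Phgdh) and 0 lower at an adjusted p of 0.05, against 0.308% and 0.0641% of all genes. Their median log2 fold change was 0.73, and 12 of 22 had an unadjusted p under 0.05, against 8.62% of all genes. Without Taz-KO mice 4685 and 5301, 10 of 24 passed the adjusted test, all higher, and the median was 0.98. Of all 16661 genes tested in that setting, 80 passed as higher and 6 as lower. Without Taz-KO mouse 4910, by contrast, Asns, Gdf15, Trib3 and Phgdh no longer passed, with edgeR adjusted p-values of 0.0591, 0.0668, 0.152 and 0.167. Of the 25 genes listed, Chac1 and Fgf21 were not tested, and Ddit3, a transcription factor of the response, was not counted because its symbol stands for 2 gene identifiers. The one tested, ENSMUSG00000025408, had a log2 fold change of 1.24 (edgeR adjusted p 0.172). Asns, which makes asparagine, was at 1.42, 1.99, 2.19 and 0.77 CPM in WT and at 15.8, 36.8, 34.3 and 7.94 CPM in Taz-KO (log2 fold change 4.02, SE 0.452, edgeR adjusted p 0.00563). Gdf15, a secreted stress hormone, was at 0.334 to 1.55 CPM in WT and at 43.8, 47.6, 63.6 and 3.97 CPM in Taz-KO mice 4685, 4910, 5300 and 5301 (5.67, SE 0.666, edgeR adjusted p 0.00970).
Trib3, a pseudokinase that restrains ATF4, was at 4.75 to 9.17 CPM in WT and at 31.6, 34.3, 33.3 and 11.9 CPM in Taz-KO (1.99, SE 0.304, edgeR adjusted p 0.0264). Phgdh, the first enzyme of serine synthesis, rose by 1.84 (SE 0.298, edgeR adjusted p 0.0339). In each of the 4 genes Taz-KO mouse 5301 was the lowest of its genotype and still above all WT mice. Atf4 itself was at 51.4 to 67.5 CPM in WT and at 74.2, 106, 127 and 22.5 CPM in Taz-KO, with an edgeR adjusted p of 0.857.

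Barcodes of other cell types held these transcripts as well. Asns in Taz-KO averaged 24.3 CPM without TMM scaling in member nuclei, 23.2 in endothelial, 22.2 in macrophage and 39.3 in cardiomyocyte barcodes. Trib3 averaged 28.6, 35.6, 20.2 and 79.0 CPM.

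The promoters of the stress genes were searched for TGATGNAA, the composite element that ATF4 and C/EBP proteins bind, on both strands of windows from 250 bases before to 50 after a RefSeq start site on GRCm38.p6. It was found in 1304 of 32851 windows (3.97%). Among the 22 tested stress genes, 20 had a window (24 windows in all), and 7 of these genes held the motif in a window. This counts genes while the 3.97% counts windows, and it would be the same whether or not the genes changed in these nuclei. Asns and Trib3 are shown because they are the genes past the test whose windows held it, and the motif stands in capitals. In the Asns window (chr6:7693160-7693459, minus strand) it lies on the strand printed, and in the Trib3 window (chr2:152344011-152344310, minus strand) on the opposite strand, so it reads as its reverse complement. The windows of Gdf15 and Phgdh held no match.
Asns: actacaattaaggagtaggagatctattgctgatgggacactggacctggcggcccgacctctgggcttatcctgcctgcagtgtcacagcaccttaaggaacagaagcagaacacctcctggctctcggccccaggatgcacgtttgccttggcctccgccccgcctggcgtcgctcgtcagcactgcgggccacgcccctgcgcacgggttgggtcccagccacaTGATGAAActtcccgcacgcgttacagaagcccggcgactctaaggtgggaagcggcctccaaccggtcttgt
Trib3: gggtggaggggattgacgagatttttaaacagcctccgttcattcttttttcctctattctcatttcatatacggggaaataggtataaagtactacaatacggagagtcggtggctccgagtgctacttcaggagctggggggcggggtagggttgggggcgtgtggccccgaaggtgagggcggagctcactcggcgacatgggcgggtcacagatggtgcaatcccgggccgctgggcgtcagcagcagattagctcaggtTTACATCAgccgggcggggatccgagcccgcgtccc

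The other lists held 0 genes past an adjusted p of 0.05 by edgeR, so values are given without a claim of change. In the neurotrophic list, Gfra1 belonged to the rule and was therefore tested in the nuclei chosen by the other 5 genes. There it was at 236, 257, 204 and 269 CPM in WT mice 4686, 4909, 5355 and 5356 and at 171, 120, 100.1 and 229 CPM in Taz-KO mice 4685, 4910, 5300 and 5301. Taz-KO mouse 5301 lay within the WT values, and the log2 fold change was -0.73 with an edgeR adjusted p of 0.366. Kcnip1, Bmper, Rgs17, Tll2 and Necab1, each tested in nuclei chosen without it, had log2 fold changes of 0.39, -0.36, 0.24, -0.65 and 0.39 with edgeR adjusted p-values of 1.00, 0.868, 1.00, 0.964 and 0.809. Ntf3, which encodes a neurotrophin, had a log2 fold change of -0.90 (edgeR adjusted p 0.362).

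Kcnd2, which encodes a Kv4 channel that Kcnip1 protein binds, was at 284, 361, 250.2 and 357 CPM in WT and at 87.5, 197, 184 and 74.1 CPM in Taz-KO mice 4685, 4910, 5300 and 5301. The mice did not overlap, yet the log2 fold change of -1.18 (SE 0.312) had an edgeR adjusted p of 0.225. Mice 4685 and 5301 were the lowest, and without them the log2 fold change was -0.73 (edgeR adjusted p 0.243). Without TMM scaling, Kcnd2 averaged 304 CPM in WT and 139 in Taz-KO member nuclei, 301 and 123 CPM in endothelial barcodes and 2846 and 1146 CPM in cardiomyocyte barcodes. In the Gfpt2 and C7 fibroblasts it averaged 287 and 239.8 CPM and in the Sntg1 and Nkain3 fibroblasts 848 and 1363 CPM. The part of cardiomyocyte transcripts in the Kcnd2 values was not tested. Without the genes of the rule, 1 of 12 members of that list had an unadjusted p under 0.05, against 8.62% of all genes, and the median log2 fold change was -0.15. The median was 0.01 over 14 neurotrophic genes, again without the genes of the rule. In the BMP lists it was -0.05 over 15 ligands and receptors and, without Bmper and Tll2, 0.09 over 23 modulators and targets.

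The matrix lists held 0 genes past the adjusted test by edgeR. The median log2 fold change was -0.12 over 25 collagens and -0.21 over 20 basement membrane and elastic matrix genes. Hspg2, the gene of the proteoglycan perlecan, was at 472, 551, 544 and 558 CPM in WT and at 406, 377, 402 and 310 CPM in Taz-KO (-0.51, edgeR adjusted p 0.241), and Lama4, a laminin chain, had -0.40 (edgeR adjusted p 0.395). These were the 2 of 20 genes whose mice did not overlap between genotypes, against 5.39% of all genes. Of 22 activated fibroblast and myofibroblast genes, 14 had values above 0 and the median was 0.44, with Postn, the matricellular marker of activation, at 45.6, 61.9, 83.9 and 33.1 CPM in WT and 141, 126, 97.9 and 30.4 CPM in Taz-KO (edgeR adjusted p 0.70). Of 10 valve and annulus genes, 0 passed the adjusted test by edgeR, 5 had an unadjusted p under 0.05 against 8.62% of all genes, and the median was 0.91, and Hapln1, a link protein of hyaluronan, averaged 3.38 CPM in WT and 6.69 CPM in Taz-KO.

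The respiratory chain and cardiomyocyte lists had medians below 0. The 43 nuclear-encoded respiratory chain genes had a median log2 fold change of -0.44 with 41 below 0, and the 16 cardiomyocyte markers a median of -0.59 with 16 below 0. In neither list did a gene have an unadjusted p under 0.05. Without Taz-KO mice 4685 and 5301 the medians were -0.05 with 24 of 43 below 0 and -0.06 with 11 of 16 below 0. Beside this, cardiomyocyte markers took 0.555% to 2.35% of UMIs in WT member nuclei and 0.221% to 1.57% in Taz-KO ones. The part of cardiomyocyte transcripts in the respiratory chain values was not tested. Mesothelial markers, of the cells that line the heart surface, had 9 of 9 values above 0 with a median of 1.06, and summed to 79.8 to 135 CPM in WT member nuclei and 40.01 to 316 CPM in Taz-KO ones. Without Taz-KO mice 4685 and 5301 their median was 1.23, and 1 of 9 passed the adjusted test as higher, against 80 of all 16661 genes. In that setting 9 of 9 had an unadjusted p under 0.05 by edgeR, against 10.4% of all genes.

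The medians of the remaining lists lay between -0.34 and 0.18. They were 0.06 over 23 TGF-beta pathway genes, 0.11 over 33 WNT genes, -0.09 over 33 genes of fibroblast growth factor and PDGF signaling, -0.16 over 13 regulators of G-protein signaling outside the rule and -0.08 over 28 axon guidance genes. Over 19 proteoglycan genes outside the rule the median was 0.02, over 17 complement and cytokine genes -0.14, over 15 heat shock genes 0.09, over 13 mitochondrial chaperones and proteases 0.13 and over 15 cardiolipin genes 0.00. Fibroblast identity genes had -0.23 (17 genes, 14 below 0) and adventitial genes -0.31 (12 genes).
Among markers of other cells the medians were 0.02 (12 endothelial genes), 0.01 (12 macrophage genes), -0.34 (8 lymphocyte genes), -0.26 (10 mural genes), 0.15 (5 Schwann cell genes), -0.16 (8 adipocyte genes) and 0.18 (8 atrial genes). Without Taz-KO mice 4685 and 5301 the medians of 12 endothelial, 12 macrophage and 8 atrial genes were 0.33, 0.32 and 0.59, that of 13 mitochondrial chaperones and proteases 0.43 and that of 12 adventitial genes 0.07. In that setting 1 of the 12 endothelial genes passed the adjusted test by edgeR as higher, against 80 of all 16661 genes. An unadjusted p under 0.05 was found in 5 of the 12, against 10.4% of all genes.

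Circadian clock genes differed widely between mice of 1 genotype. Of 19 clock genes 0 passed the test between genotypes by edgeR and 1 had an unadjusted p under 0.05, against 0.372% and 8.62% of all genes. Npas2, an activator of the clock, was at 14.3, 39.0, 450.3 and 696 CPM in WT mice 4686, 4909, 5355 and 5356 and at 25.5, 45.1, 96.5 and 82.1 CPM in Taz-KO mice 4685, 4910, 5300 and 5301. Arntl, which encodes the partner of Npas2, was at 7.6, 23.0, 177 and 242 CPM in WT and 1.22, 25.2, 51.1 and 59.6 CPM in Taz-KO. WT mice 5355 and 5356 were highest in both genes, Taz-KO mice 5300 and 5301 lay between, and the other 4 mice were lowest.
The output genes ran the other way. Dbp, a transcription factor that the clock drives, was at 142, 107, 5.94 and 3.21 CPM in WT and at 122, 64.3, 42.1 and 27.8 CPM in Taz-KO, and Per3, a repressor of the clock, at 173, 98.9, 15.5 and 21.7 CPM and 230, 74.9, 32.6 and 74.1 CPM. WT mice 5355 and 5356 were lowest in both genes.

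The order of the mice in Kcnip1 is given beside that in the clock output genes, with no test. In nuclei chosen without it, Kcnip1 was highest in Taz-KO mouse 4685 (269 CPM) and WT mouse 4686 (186 CPM) and lowest in WT mouse 5355 (38.1 CPM), Taz-KO mouse 5300 (60.7 CPM) and WT mouse 5356 (65.8 CPM). Per3 was also highest in mice 4685 and 4686 and lowest in WT mice 5355 and 5356, followed by Taz-KO mouse 5300. Tef, another output gene, was at 258, 149, 30.1 and 40.1 CPM in WT and at 244, 140, 74.3 and 131 CPM in Taz-KO. In Dbp the order differed, with Taz-KO mouse 5301 next after WT mice 5355 and 5356 from the bottom at 27.8 CPM while in Kcnip1 only mice 4685 and 4686 were above its 156 CPM. The order was noticed after the values were seen, and the times at which the hearts were taken are not given in the sources used here.

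**Figure D5:**
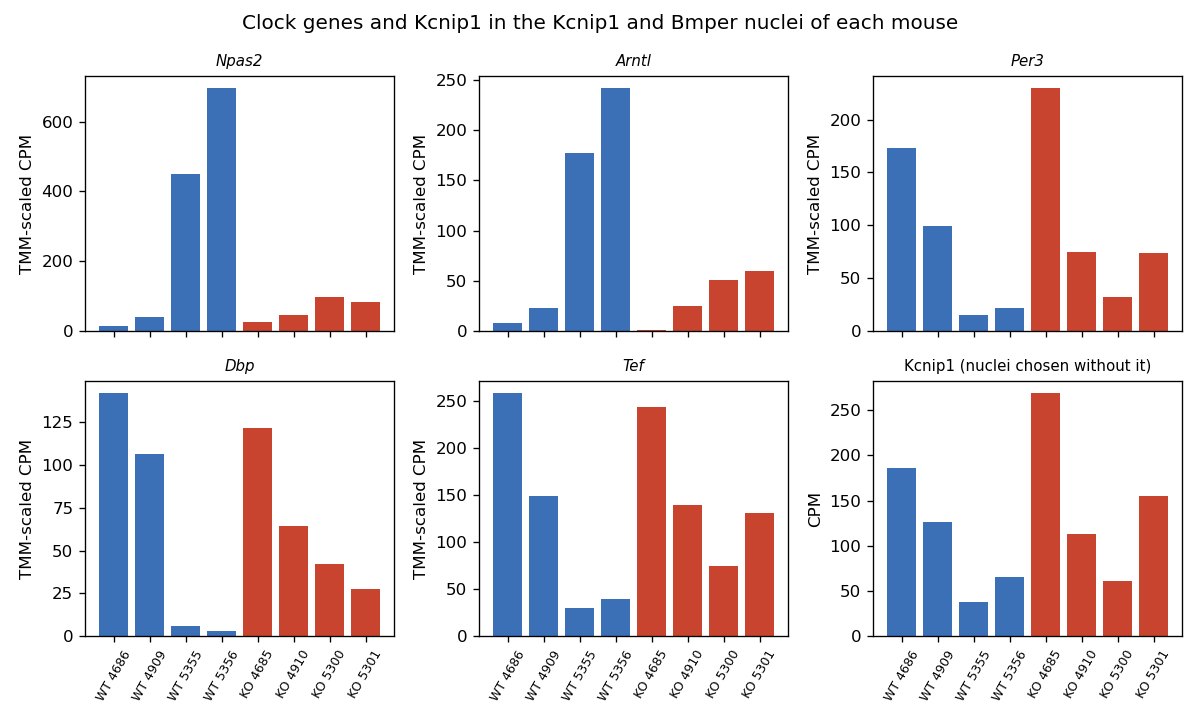
CPM of 5 clock genes and of Kcnip1 in the Kcnip1 and Bmper fibroblasts of each mouse (blue WT, red Taz-KO), after TMM scaling for the clock genes and without it, in nuclei chosen by the other 5 genes, for Kcnip1. WT mice 5355 and 5356 are highest in Npas2 (450.3 and 696 CPM) and lowest in Per3, Dbp and Tef, and Kcnip1 is low in them as well.

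Within each of the 8 mice the 19 clock genes had a higher sum in the Kcnip1 and Bmper fibroblasts than in both other fibroblast groups. The median ratio was 1.33 to the Gfpt2 and C7 fibroblasts and 1.31 to the Sntg1 and Nkain3 fibroblasts, while the ranges over mice overlapped. Of 15 clock genes compared one by one, 1 (Rora) was higher than in both groups in all mice, against 2.69% of all genes. The genes summed to 4312 to 7360 CPM in WT and 3956 to 6985 CPM in Taz-KO, against 1733 to 3064 CPM and 1922 to 2783 CPM in endothelial barcodes. Rora, a nuclear receptor of the clock, carried most of the sum, at 2827 to 6008 CPM on the TMM scale. Its mice overlapped between genotypes (log2 fold change -0.25, edgeR adjusted p 0.986).

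Whether the genotype difference was particular to the Kcnip1 and Bmper fibroblasts was tested with an interaction term and the mouse as a block. Against the Gfpt2 and C7 fibroblasts, 6 of 16494 genes (0.0364%) differed at an adjusted p of 0.05, and against the Sntg1 and Nkain3 fibroblasts 2 of 16421 (0.0122%). Rai14, an actin-associated protein gene, averaged, on the TMM scale, 28.9 CPM in WT and 36.1 in Taz-KO in the Kcnip1 and Bmper fibroblasts and 59.2 and 46.2 CPM in the Gfpt2 and C7 fibroblasts, a difference in log2 fold change of 0.83 (SE 0.114, edgeR adjusted p 0.00108). Pde8a, a cAMP phosphodiesterase, differed by 0.62 (SE 0.0919, edgeR adjusted p 0.00192), Sdk1 by 0.48, Cntn5 by 1.36 and Stac2 by 2.26, while Pawr differed by -0.75 (SE 0.116, edgeR adjusted p 0.00276). Stac2 rested on few transcripts. It averaged 0.523 CPM in WT and 2.85 CPM in Taz-KO in the Kcnip1 and Bmper fibroblasts, against 3.27 and 3.57 CPM in the other group.
Against the Sntg1 and Nkain3 fibroblasts, Arhgap28 averaged on the same scale 110 and 83.9 CPM in the Kcnip1 and Bmper fibroblasts and 178 and 269 CPM in the other group, a difference of -0.95 (SE 0.117, edgeR adjusted p 0.0017), and Tango6 differed by -0.72 (edgeR adjusted p 0.0492). The count against the Gfpt2 and C7 fibroblasts was 0 without Taz-KO mouse 4910, with 889 genes at an unadjusted p under 0.05, and 41 without Taz-KO mouse 5301. Against the Sntg1 and Nkain3 fibroblasts it was 69 without WT mouse 5356, 38 without Taz-KO mouse 4685, 9 without WT mouse 5355 and 205 without Taz-KO mice 4685 and 5301.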

How the data were processed

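Single-nucleus RNA-seq of whole hearts was analysed for 4 WT and 4 Taz-KO mice. The deposited values are UMI counts, not normalized, which the authors produced with Cell Ranger 6.0.1 (per the submitters' processing notes) against mm10 with intronic reads included, before their correction for ambient RNA and their removal of doublets. Neither step was repeated, and barcodes were kept at 800 UMIs outside mitochondrial genes. Libraries held 20025456 to 348080773 UMIs. In total, 32235 of 32285 gene IDs were found in GENCODE vM21 (GRCm38). Nothing says whether mice came from separate litters.

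Member nuclei were summed within each mouse, and the sums entered edgeR 4.0.16 under R 4.3.3 (TMM, filterByExpr, robust quasi-likelihood test, Benjamini-Hochberg adjustment), and DESeq2 1.42.0 was the other tool. The interaction with a second fibroblast group had the mouse as a block. Shares were compared by exact permutation tests in scipy 1.17.1. On data simulated for the comparison of genotypes with 15340 genes, 34% of 2-fold and 92% of 4-fold changes were recovered, and 8 of 15140 genes simulated with no change were called. The reference barcodes had endothelial or macrophage markers at an enrichment of at least 3 with 4 UMIs and Ryr2 and Ttn at 1 or less, or Ryr2 and Ttn at 2 or more, and in each case general fibroblast genes below 1.

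The members and the gene lists were chosen with earlier results of these data known. Genes were named if they were Taz or in the rule, among the 12 largest changes per direction past the test with mice that did not overlap and at least 5 CPM, among the 5 largest interactions per direction, among the 20 highest and 10 lowest against the other fibroblasts, or, in a list, past the test and then highest in mean CPM, up to 6 genes. Other list genes with values (Hspg2, Postn, Hapln1, Arntl, Per3, Dbp, Fbln1, Bmp4, Dpp4, Ackr3, Efemp1) were chosen after their values were seen. Alternatives were other normalizations, filters, thresholds, leaving out mice and leaving out genes of the rule.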

Additional observations from a re-analysis of the deposited data

Results flagged for a closer look

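With 62 groups of 4 mice examined, 5 values stood apart from the other mice of their group by more than the 95% critical value of Dixon's test, which chance gives in about 1 in 20 groups. The share that Kcnip1 and Bmper fibroblasts made up of the broad fibroblasts was 22.8% in the highest WT mouse. On the TMM scale the lowest Taz-KO mouse stood apart in Ostn at 5.29 CPM, in Trib3 at 11.9 CPM and in Tfcp2l1 at 2.65 CPM, and the lowest WT mouse in Tfcp2l1 at 0.257 CPM.

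For 8 genes the genotype difference itself differed between fibroblast groups by edgeR's interaction test. The interaction estimates are for the Kcnip1 and Bmper fibroblasts relative to the other group, in log2 units. Against the Gfpt2 and C7 fibroblasts they were 0.83 in Rai14, 0.62 in Pde8a and 0.48 in Sdk1. In Stac2, Cntn5 and Pawr they were 2.26, 1.36 and -0.75. Log2 fold changes of each group came from separate fits, so their differences need not equal the estimates. In Pde8a (-0.15 against -0.63), Sdk1 (-0.17 against -0.63) and Cntn5 (-0.35 against -1.49) both groups had values below 0. The size was smaller in the Kcnip1 and Bmper fibroblasts. Against the Sntg1 and Nkain3 fibroblasts the estimate was -0.95 in Arhgap28 and -0.72 in Tango6.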

How the results depend on the processing

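Of 554 alternative values for 22 named genes, 488 kept direction and side of the threshold, 65 were no longer past it, 1 (Taz) newly was and 0 reversed. Against 58 called genes (2 at the stricter limits), DESeq2 called 215 (65), no filter on low counts 90 (12), the cardiomyocyte marker share as a covariate 503 (37), an enrichment of at least 5 37 (1), leaving out barcodes with other markers 36 (1), and thinning to 800 UMIs 1 (0) among 7676 genes tested in 7 mice. The stricter count was 4 with RLE size factors, with Ryr2 and Ttn at most 0.5, and without Gfra1 or Bmper in the rule, and 6 without Taz-KO mice 4685 and 5301. Leaving out 1 mouse gave 4 to 116 called genes (0 to 8 stricter), 0 to 41 interactions against the Gfpt2 and C7 fibroblasts and 1 to 69 against the Sntg1 and Nkain3 fibroblasts, the most without WT mouse 5356, with 38 without Taz-KO mouse 4685. No filter gave 117 and 314 interactions, leaving out Taz-KO mice 4685 and 5301 84 and 205, and RLE 1 against the Sntg1 and Nkain3 fibroblasts. The Taz-KO minus WT share of barcodes, in percentage points, was -0.312 at an enrichment of 5, -3.09 without other markers, -2.91 without Gfra1, -0.133 after thinning, -5.01 with 1 common list share, -2.63 without mice 4685 and 5301, and -3.45 to -2.29 without 1 mouse, where the exact permutation p of 0.0571 was the smallest possible. Without the minimum of 4 UMIs, an alternative chosen after seeing the data, it reversed to 0.05004 (exact permutation p = 0.943). The difference in the share that members made up of the 3 fibroblast groups reversed to 2.23 at an enrichment of 5 and 3.57 after thinning. That in their share of the broad fibroblasts reversed to 0.0807 and 0.155. The cause was not tested. No paired analysis was possible because the mouse numbers in the labels are not shared between genotypes. The 84 and 222 nuclei of Taz-KO mice 4685 and 5301 limit the depth of their sums.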
